A study of Mus musculus with 12 samples.

Results

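The collagens and the matrix genes of the meninges were followed as 1 group of 43 genes among the 13770 gene models of the mRNA table from E18 whole brains. Of these, 33 are every gene model whose symbol is Col, a number, the letter a and a number. The other 10 are Dcn, Lum, Ogn, Fn1, Fbln1, Lama2, Foxc1, Foxd1, Islr and Nid1, taken by name, and all 10 were in the table. A further 12 collagen symbols had no row in the table and were not analysed here. RNA-seq after poly-A selection was done on 12 C57BL/6 brains (C57BL/6J in the methods) at embryonic day 18. The 6 PAE brains came from dams that drank ethanol sweetened with saccharin, and the 6 SAC brains from dams that drank saccharin alone. PAE females were ES19-4, ES23-7 and ES27-4, and PAE males were ES19-8, ES23-4 and ES27-1. SAC females were SAC12-5, SAC26-5 and SAC26-7, and SAC males were SAC12-6, SAC12-7 and SAC26-8. The 5 name prefixes each lie within 1 treatment. No source read here says that they stand for litters. Each brain was treated as its own replicate, so a p-value reflects the variation among these 12 brains alone.

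Collagens are triple helices of alpha chains that fall into families by what they build. Fibrillar collagens form the tensile fibres of skin, bone, cartilage and the dura, fibril-associated collagens coat those fibres, and type IV collagens form the sheet of every basement membrane, including those of brain vessels and of the pial surface. In the brain, most interstitial collagen is made by fibroblasts of the meninges and around vessels, and hardly any by neurons. Decorin, lumican and osteoglycin (Dcn, Lum and Ogn) are small leucine-rich proteoglycans that bind collagen fibrils, nidogen (Nid1) links laminin to type IV collagen, and Foxc1 is a transcription factor that the meninges need to form in the mouse.

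Promoters of 5 members are printed, because their genes carry the comparisons that follow. Col4a1 and Col4a2 start head to head and are followed as a pair, Col3a1 had the largest ratio of highest to lowest brain among the tested members (8.15, which rests on ES27-4), and Nid1 and Col9a2 were the members that passed the test between PAE and SAC. Each is a window of 300 bases around the gene's RefSeq start in GRCm38.p6, given 5′ to 3′ on the gene's own strand. The windows are chr8:11312777-11313076 on the minus strand for Col4a1, chr8:11312555-11312854 on the plus strand for Col4a2, chr1:45311288-45311587 on the plus strand for Col3a1, chr13:13437352-13437651 on the plus strand for Nid1 and chr4:121039316-121039615 on the plus strand for Col9a2. Capitals mark matches on either strand to TATAAA, to the box motif CCAAT and to the GC box, spelled GGGCGG. On the other strand CCAAT reads as ATTGG and the GC box reads as CCGCCC.
Col4a1: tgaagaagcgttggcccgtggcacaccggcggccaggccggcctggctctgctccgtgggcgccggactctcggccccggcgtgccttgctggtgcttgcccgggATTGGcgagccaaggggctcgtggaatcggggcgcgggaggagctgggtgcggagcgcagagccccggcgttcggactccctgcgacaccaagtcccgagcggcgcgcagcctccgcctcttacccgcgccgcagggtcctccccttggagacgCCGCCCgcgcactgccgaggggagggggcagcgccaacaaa
Col4a2: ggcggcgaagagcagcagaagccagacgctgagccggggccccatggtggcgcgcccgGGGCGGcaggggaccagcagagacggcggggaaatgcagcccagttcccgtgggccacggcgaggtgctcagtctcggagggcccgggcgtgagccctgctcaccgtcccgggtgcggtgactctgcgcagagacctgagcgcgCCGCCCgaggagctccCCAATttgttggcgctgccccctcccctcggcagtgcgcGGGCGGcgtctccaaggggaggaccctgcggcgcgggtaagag
Col3a1: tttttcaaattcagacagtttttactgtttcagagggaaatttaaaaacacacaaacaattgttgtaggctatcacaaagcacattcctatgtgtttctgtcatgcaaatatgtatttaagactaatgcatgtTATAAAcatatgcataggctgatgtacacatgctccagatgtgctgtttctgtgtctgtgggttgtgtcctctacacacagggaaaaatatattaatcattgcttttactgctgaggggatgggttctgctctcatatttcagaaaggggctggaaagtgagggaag
Nid1: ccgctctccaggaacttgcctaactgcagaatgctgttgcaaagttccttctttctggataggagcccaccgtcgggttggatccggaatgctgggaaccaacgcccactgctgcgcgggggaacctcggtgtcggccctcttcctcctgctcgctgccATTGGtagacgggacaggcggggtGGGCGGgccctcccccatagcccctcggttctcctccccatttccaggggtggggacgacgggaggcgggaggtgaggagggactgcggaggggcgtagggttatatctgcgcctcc
Col9a2: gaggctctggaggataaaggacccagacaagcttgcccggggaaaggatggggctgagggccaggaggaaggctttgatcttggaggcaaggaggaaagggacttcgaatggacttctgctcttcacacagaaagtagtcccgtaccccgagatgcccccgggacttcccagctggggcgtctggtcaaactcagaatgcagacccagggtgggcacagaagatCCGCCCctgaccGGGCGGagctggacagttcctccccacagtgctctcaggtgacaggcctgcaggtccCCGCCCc
The Col4a1 and Col4a2 windows share 78 bases, and the annotated genes overlap by 22 bases. Of the 43 members, 32 had a promoter in RefSeq's list. A GC box was in 22 of these 32 windows (68.8%), and in 35.6% of all 32817 windows of this length. TATAAA was in 4 of 32, Col3a1 among them, and in 13.6% of all windows. CCAAT was in 12 of 32 and in 37.4% of all, and a forkhead motif, GTAAACA, was in 1 of 32 (Col6a1) and in 3.65% of all. Matches are descriptions of these letters and not binding sites. Other members also lie next to each other: Col4a6 and Col4a5 start head to head on chromosome X with 1308 bases between them, and Col3a1 and Col5a2 on chromosome 1, Dcn and Lum on chromosome 10, and Col6a2 and Col6a1 on chromosome 10 lie 24614, 46984 and 85161 bases apart.

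Each brain gave 1 library, and summed FPKM (fragments scaled by transcript length and by library depth) were 218026 to 232863 per library, with 12025 to 12459 genes at 1 FPKM or more. FPKM hold no read counts, so depth and the counting error of low values are unknown. The list of cortical neuron genes, a check of the tissue label, summed to 416 to 581 FPKM in PAE and 274 to 432 FPKM in SAC brains. The list of hindbrain and spinal cord genes, mostly Hox genes, was close to 0 in 6 of the 12 libraries. Its sum in PAE was 62.9 FPKM for ES19-4 and 0.048 to 0.18 FPKM for the remaining 5, and in SAC 0.26 FPKM for SAC12-6 and 24.6 to 70.2 FPKM for the remaining 5. For the collagens another library stood apart, the PAE female ES27-4. Differences between PAE and SAC are therefore also given without ES27-4 for the members it moved. SAC26-5, a SAC female, was the highest of the 12 brains for 12 of the 32 tested members, but for only 4.42% of all genes. Skin and epithelial markers summed to 45.2 FPKM in SAC26-5 and 44.1 FPKM in SAC26-8, another SAC brain, and to 12.3 to 19.9 FPKM in the other 10, and their part in the collagen values was not tested.

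In the gene table the most abundant members belonged to the basement membrane. Genes were ranked by mean FPKM over the 12 brains, a level per transcript length. Col4a1 (23.3 FPKM) and Col4a2 (21.7 FPKM), the chains found in every basement membrane, stood above all others, followed by Nid1 (10.5 FPKM). The next levels were those of Islr (9.65 FPKM), which encodes a leucine-rich repeat protein of stromal cells, and Fn1 (9.31 FPKM), the fibronectin gene. Col3a1 (8.24 FPKM) and Col1a1 (7.72 FPKM), major fibre-forming collagens, then Col9a2, Dcn, Ogn, Col9a3 and Fbln1 (6.82 to 6.11 FPKM) completed the first 12. Neighbours in this order from Islr to Fbln1 differed by less than the spread between brains.

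**Figure D1:**
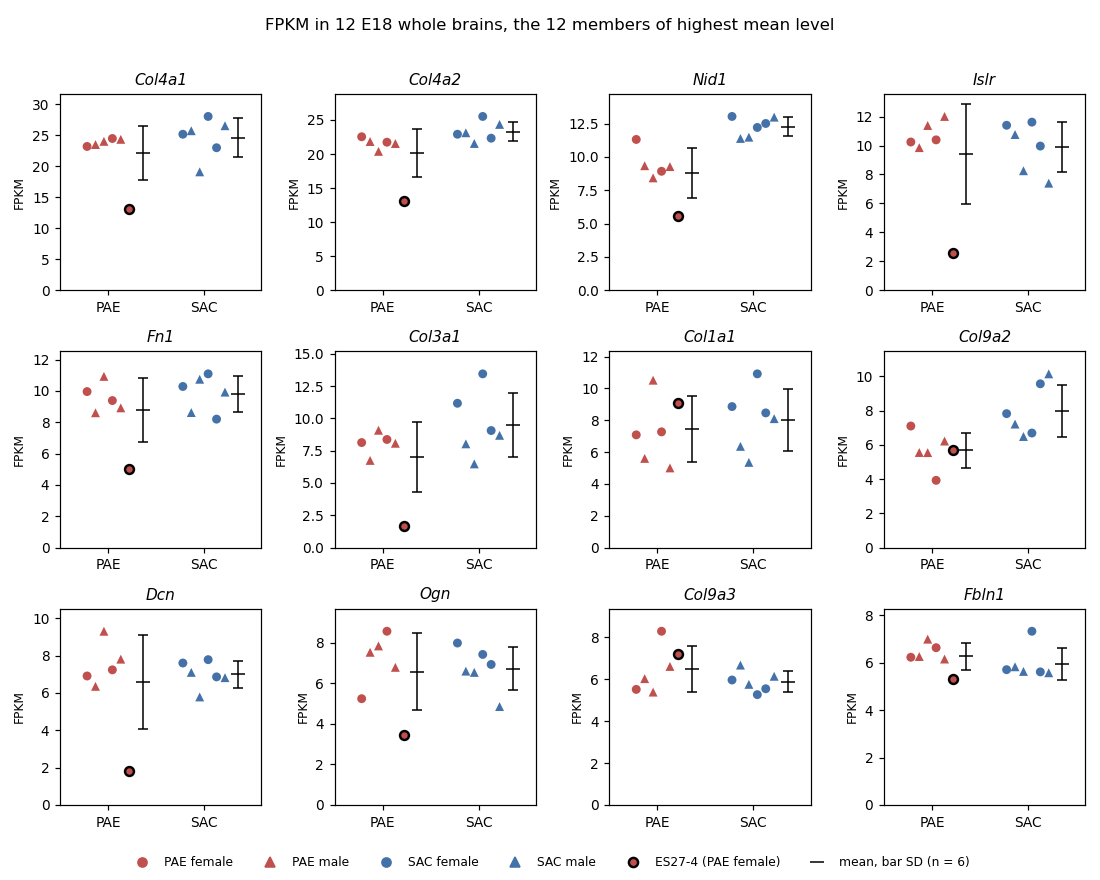
FPKM (y axis, each panel from 0) of the 12 members of highest mean level in 6 PAE brains (left) and 6 SAC brains (right), with circles for females, triangles for males, a black outline for ES27-4, and the mean with a bar of 1 SD (n = 6 each). ES27-4 is the lowest PAE brain for Col4a1, Col4a2, Nid1, Islr, Fn1, Col3a1, Dcn, Ogn and Fbln1 but not for Col1a1, Col9a2 or Col9a3.

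In all, 32 members had a mean of at least 1 FPKM and entered the test, 24 of them collagens. Below the first 12 were Col1a2 (5.56 FPKM), the partner chain of Col1a1, and Col6a1, Col18a1, Col6a2 and Lum (4.97 to 3.84 FPKM). Col2a1, Col11a1, Col5a2, Col23a1, Col5a1, Col15a1, Col4a5, Foxc1, Col16a1 and Col26a1 lay between 3.31 and 2.23 FPKM. Col8a1, Col6a3, Col11a2, Col12a1 and Col22a1 were at 1.56 to 1.03 FPKM. The remaining 11 were under 1 FPKM and did not enter the test across genes: Col25a1, Col8a2, Col13a1, Col27a1, Col4a6, Lama2, Foxd1, Col28a1, Col19a1, Col14a1 and Col5a3 (0.97 to 0.33 FPKM). The order of levels depends on the table used. Summed over the transcript table, the mean was 12.8 FPKM for Col1a2, 14.4 for Col3a1, 22.4 for Dcn and 9.81 for Col4a1, so that Col1a2 lay above Col1a1 (8.53 FPKM) there and below it in the gene table. Dcn was the highest member there, next to Col4a2 (22.3 FPKM), and Col4a1 lay below Col3a1, Col1a2, Islr, Nid1, Fn1 and Fbln1, so the place of Col4a1 at the top holds for the gene table only.

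The largest contrast among the members was between ES27-4 and the other 11 brains. ES27-4 was under 50% of the median of the other 11 brains for 13 of the 32 tested members, where 2.24% of all genes tested were, and no other brain was under 50% for any tested member. It was the lowest of the 12 brains for 21 of 32, where 11.6% of all genes were. Over all 43 members it was the lowest brain for 25, within the range of the others for 17, and above it for 1, Col2a1. The members' FPKM summed to 114 in ES27-4 and to 171 to 222 in the other 11 brains. In whole-brain RNA, fewer cells of a type and less RNA per cell cannot be told apart. ES27-4 is a single brain, so these values are a description with no test.

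Col4a6 (17.4% of the median of the other 11 brains), Col3a1 (19.7%) and then Col6a1, Col6a3, Islr, Dcn and Col6a2 (up to 26.4%) were the lowest members in ES27-4. Col6a1, Col6a2 and Col6a3, the chains of the beaded filaments of loose connective tissue, were at 1.12, 1.08 and 0.37 FPKM in ES27-4. In the other 11 brains they ranged from 4.36 to 6.94, from 3.36 to 5.55 and from 1.32 to 2.08 FPKM. Col3a1, the fibrillar collagen of soft tissues and vessel walls, was at 1.65 FPKM in ES27-4 (19.7% of the median of the others) and at 6.47, 8.36 and 13.4 FPKM at the lowest, median and highest of the other 11. The ranges leave a gap for each of these 4 genes, and ES27-1, the other brain with its prefix, was within the range of the rest (Col3a1 8.07 FPKM).

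Dcn was at 1.84 FPKM in ES27-4 and 5.78 to 9.30 FPKM in the others, Lum at 1.19 and 3.19 to 4.98 FPKM, and Ogn at 3.44 and 4.86 to 8.58 FPKM. Islr was at 2.56 FPKM in ES27-4 and 7.40 to 12.01 FPKM in the others. Both forkhead factors were also lowest there. Foxc1 was at 1.12 FPKM in ES27-4 and 2.07 to 2.78 FPKM in the other brains, and Foxd1, a factor of stromal progenitors in the kidney, at 0.28 and 0.35 to 1.01 FPKM.

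Several members of basement membranes, and Fn1, were lower in ES27-4 by margins that differed between genes. Col4a1 and Col4a2 were at 13.1 and 13.1 FPKM in ES27-4, which is 54.1% and 58.5% of the median of the other 11 brains. Nid1 was at 5.55 FPKM (48.7%), Fn1 at 5.00 FPKM (50.3%) and Col18a1, whose protein is the source of endostatin, at 2.19 FPKM (42.7%). The X-linked chains were lower still, with Col4a5 at 1.09 FPKM (41.3%) and Col4a6 at 0.11 FPKM (17.4%). Lama2, a laminin alpha chain, was at 0.33 FPKM (50.5%). Each of these 8 genes was at its lowest of 12 brains in ES27-4. Not all genes of basement membranes were: Col15a1 was at 83.5%, within the range of the others. A list of basement membrane partners outside the members summed to 76.4% of the median, below all other brains. Of its 12 tested genes 3 were under 50%, while Agrn (102%) and Pxdn (95.5%) were within the range of the others. Among transmembrane collagens, Col23a1 was at 44.1% and Col13a1 at 28.7% of the median of the other 11 brains, both the lowest brain, and Col25a1 at 81.5%, within their range.

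The cartilage collagens and Col1a1 did not follow, whereas Col1a2, the other chain of type I collagen, was at 63.1% and below the range of the other 11 brains. Col2a1, the main collagen of cartilage, was at 4.63 FPKM in ES27-4, above the range of 2.49 to 4.01 FPKM in the other 11 brains. Col1a1, a main chain of bone, skin and dura, was at 9.06 FPKM in ES27-4, and the other 11 brains were at 5.01, 7.27 and 10.9 FPKM at the lowest, median and highest. Col9a2, Col9a3, Col11a1 and Col11a2, which build and coat cartilage fibrils, were within the range of the other brains, at 85.0%, 120%, 97.3% and 128% of their median. So were all 7 fibril-associated collagens, which include Col12a1, Col14a1, Col16a1, Col19a1 and Col22a1. Fbln1, a fibulin of elastic matrix and basement membranes, was the lowest brain but at 86.3%. Col27a1, Col5a3, Col28a1, Col15a1, Col8a1 and Col8a2 were also within the range of the others, whereas Col5a1 (56.6%), Col5a2 (72.9%) and Col26a1 (59.4%) were below it.

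**Figure D2:**
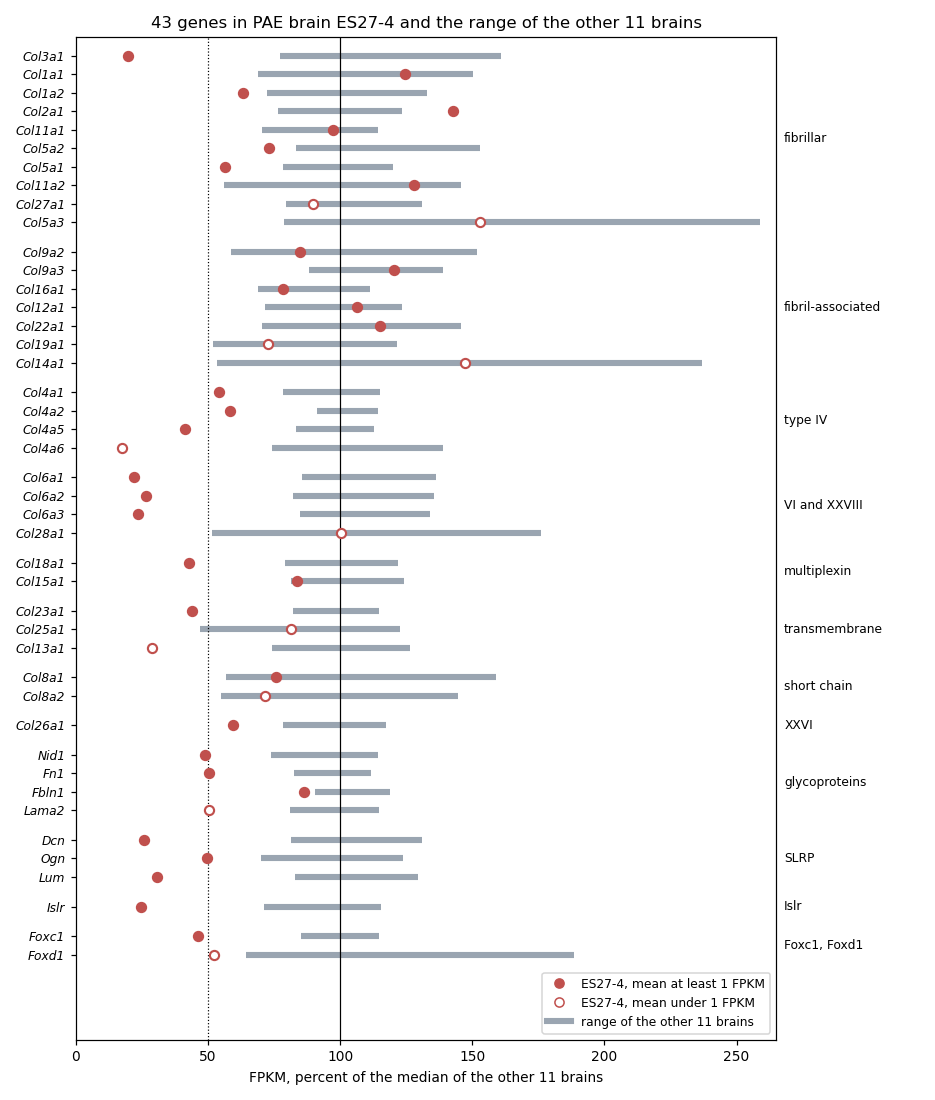
Level of each of the 43 members in ES27-4 (points) as a percent of the median of the other 11 brains, with the range of those 11 brains as a grey bar, grouped by role; filled points have a mean of at least 1 FPKM, and the dotted line marks 50%. Points for type VI collagens, Col3a1, proteoglycans and Islr lie far left of their bars, and those for Col1a1 and the cartilage collagens lie on or right of theirs.

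Ratios within a brain are taken from these same levels, so they restate the split and are no separate support for it. Col1a1 over Col3a1 was 5.49 in ES27-4 and 0.62 to 1.16 in the other 11 brains, and Col2a1 over Col3a1 was 2.81 against 0.23 to 0.41. Col1a1 over Col1a2, the 2 chains of type I collagen, was 2.44 in ES27-4 and 1.07 to 1.59 in the others. On the transcript table this ratio was 1.18 in ES27-4 and 0.52 to 0.77 in the others, so the level of the ratio depends on the table but ES27-4 was the highest brain in both. Where both genes were low in ES27-4, the ratio was within or near the range of the other brains. Col4a1 over Col4a2 was 1.01 in ES27-4 and 0.88 to 1.18 in the others, and Dcn over Lum was 1.55 against 1.55 to 2.22. Col6a1 over Col6a2 was 1.03 in ES27-4, below the 1.14 to 1.75 of the others.

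Gene lists for other cell types were summed in the same brains, and their part in the collagen values was not tested. The other meningeal fibroblast genes summed to 156 FPKM in ES27-4, 52.1% of the median of the other 11 brains, which ranged from 274 to 358 FPKM. Of its 23 tested genes 13 were under 50% of their median. Slc6a13, a transporter of the arachnoid, was at 0.25 FPKM in ES27-4 and 5.03 to 7.64 FPKM in the others, Aldh1a2, which makes retinoic acid in the meninges, at 0.72 and 7.31 to 10.8 FPKM, and Ptgds, the prostaglandin D synthase, at 6.38 and 39.5 to 99.3 FPKM. These 3 were named for their values. Microglia and macrophage markers stood at 39.9% in ES27-4, pericyte and smooth muscle markers at 63.1% and endothelial markers at 70.8%, each below all other brains. The sum of 5 bone and cartilage markers stood at 99.1%, skeletal muscle at 91.7%, choroid plexus at 85.2%, red blood cells at 115% and cortical neuron genes at 129%, each within the range of the others. Only 5 of 16 listed bone and cartilage markers were among the gene models, and 8 of 16 listed skeletal muscle markers. The bone and cartilage genes did not move as one, and most of their sum was Sox9, a transcription factor of cartilage and glia, at 14.5 FPKM in ES27-4 and 13.5 to 17.9 FPKM in the others. Ibsp, the bone sialoprotein gene, was above the other brains (3.61 FPKM in ES27-4 and 0.21 to 1.70 FPKM in the others), Cnmd, chondromodulin of cartilage, below them (0.64 and 0.89 to 1.88 FPKM), Spp1, osteopontin, below them (2.66 and 2.87 to 4.67 FPKM), and Alpl, alkaline phosphatase, within their range (2.25 and 1.64 to 2.82 FPKM). No listed gene outside the hindbrain list was at 0 in ES27-4.

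**Figure D3:**
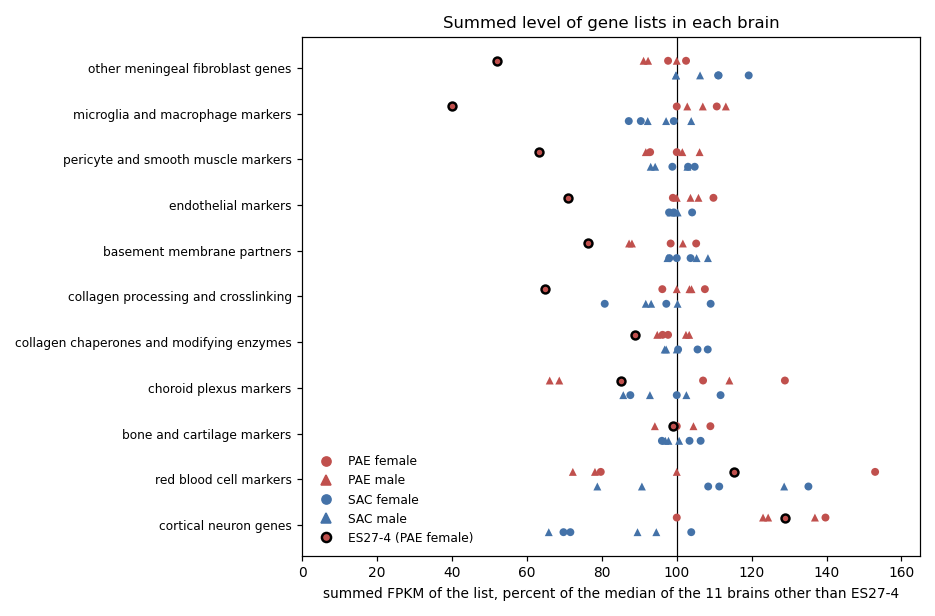
Summed FPKM of 11 gene lists in each brain as a percent of the median of the 11 brains other than ES27-4 (x axis), with PAE brains (red) above SAC brains (blue) in each row, circles for females and triangles for males. ES27-4 (black outline) is the lowest brain at 52.1% for other meningeal fibroblast genes and 39.9% for microglia and macrophage markers, and lies at 99.1% for the sum of bone and cartilage markers, whose single genes lie on both sides.

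PAE and SAC brains were then compared over all 12 brains on the scale of log2(FPKM + 1), which understates changes of low genes. Adjusted p-values are from limma with Benjamini-Hochberg adjustment over 12346 genes. No member was higher in PAE at an adjusted p under 0.05, where 4.34% of all genes were, and 2 of 32 were lower, Nid1 and Col9a2, where 5.22% of all genes were. At an unadjusted p under 0.05, 0 members were higher (13.7% of all genes) and 5 were lower (14.8% of all genes). Both counts are near or under the share over all genes. The difference was below 0 in 27 of 32 members, against 48.3% of all genes, and its median was -0.16 in the members and 0.01 over all genes. Without ES27-4 the median was -0.06 in the members and 0.01 over all genes. There 21 members were below 0 and 11 above, and the share of all genes below 0 is not given for that fit. Leaving out any other single brain gave a median of the members between -0.20 and -0.13.

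Nid1, on chromosome 13 of GRCm38 from 13437551 to 13512269, was lower in PAE. It was at 5.55, 9.10 and 11.3 FPKM (lowest, median and highest) in PAE brains and 11.4, 12.4 and 13.0 FPKM in SAC brains. All 6 PAE brains lay below all 6 SAC brains, as they did for 1.92% of all genes, and Nid1 was the only member with such a gap in either direction (PAE above SAC in 0 members and 2.11% of all genes). The means were 8.81 ± 1.87 FPKM in PAE and 12.3 ± 0.72 FPKM in SAC brains (SD, n = 6 each), a log2 difference of -0.46 (standard error 0.115, adjusted p = 0.0312 by limma). Without ES27-4 the PAE mean was 9.46 ± 1.10 FPKM (SD, n = 5) and the log2 difference -0.35 (adjusted p = 0.0378 by limma). By limma, Nid1 did not pass without ES23-4 (adjusted p = 0.0679), SAC12-5 (0.0623), SAC12-7 (0.0544), SAC26-7 (0.0649) or SAC26-8 (0.0761). With the prefix as a random block Nid1 passed (adjusted p = 0.0412 by limma), and with means of each prefix it did not (adjusted p = 0.242 by limma).

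Nid1 was set beside the hindbrain list in single brains, and no correlation between them was computed. Hox level and treatment nearly coincide in these brains, so their parts cannot be told apart. The highest PAE brain for Nid1 was ES19-4 (11.3 FPKM), the only PAE brain with Hox genes, and the lowest SAC brain was SAC12-6 (11.4 FPKM), the only SAC brain almost without them. With the Hox level as a covariate the log2 difference was -0.31 and did not pass (adjusted p = 0.338 by limma), and no gene of the table passed in that fit. Exons of Nid1 and of the antisense gene Gm48682 share 143 bases.

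Col9a2, a chain of type IX collagen, on chromosome 4 from 121039385 to 121055322, was also lower in PAE. It was at 3.92, 5.61 and 7.09 FPKM (lowest, median and highest) in PAE brains and 6.48, 7.51 and 10.1 FPKM in SAC brains. The groups overlapped through ES19-4, the highest PAE brain, which was above 2 SAC brains, and ES27-4 was near the middle of the PAE brains (5.68 FPKM). Means were 5.67 ± 1.04 FPKM in PAE and 7.98 ± 1.53 FPKM in SAC brains (SD, n = 6 each), a log2 difference of -0.43 (standard error 0.124, adjusted p = 0.0469 by limma). The call was lost without any 1 brain other than ES19-4 or SAC26-5 (adjusted p from 0.0561 to 0.106 by limma), at 0.0745 without ES27-4. With the Hox level as a covariate the difference was -0.27 (adjusted p = 0.438 by limma). The call was also lost with the prefix as a random block (adjusted p = 0.0597 by limma), with means of each prefix (0.248), with sex as a covariate (0.0609), with quantile scaling (0.0539) and on transcript sums (0.0659). Its partner Col9a3 was at 5.39, 6.32 and 8.30 FPKM in PAE and 5.27, 5.86 and 6.68 FPKM in SAC brains, with a log2 difference of 0.11 (adjusted p = 0.424). Col9a2 over Col9a3 was 0.47 to 1.29 in PAE and 1.08 to 1.72 in SAC brains.

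**Figure D4:**
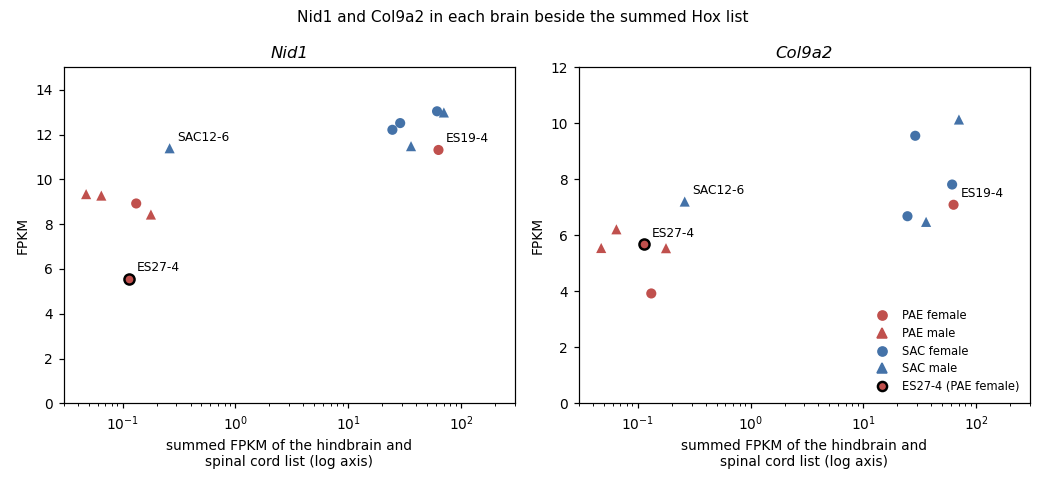
FPKM of Nid1 and Col9a2 (y axes, from 0) in each brain against the summed FPKM of the hindbrain and spinal cord list (x axis, log scale), with PAE in red, SAC in blue, circles for females and triangles for males. ES19-4 is the only PAE brain on the right (62.9 FPKM) and SAC12-6 the only SAC brain on the left (0.26 FPKM), and for Nid1 they lie at 11.3 and 11.4 FPKM.

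The other abundant members did not pass the test. Col4a1 was at 13.1, 23.7 and 24.4 FPKM (lowest, median and highest) in PAE and 19.1, 25.4 and 28.0 FPKM in SAC brains, a log2 difference of -0.17 (adjusted p = 0.461), and -0.03 without ES27-4. Col4a2 was at 13.1, 21.6 and 22.5 FPKM in PAE and 21.6, 23.0 and 25.5 FPKM in SAC brains (-0.22, adjusted p = 0.206, and -0.10 without ES27-4). In both genes the 5 PAE brains other than ES27-4 lay within 20.4 to 24.4 FPKM and the groups overlapped.

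Col3a1 was at 1.65, 8.10 and 9.08 FPKM in PAE and 6.47, 8.87 and 13.4 FPKM in SAC brains (-0.47, adjusted p = 0.299, and -0.18 without ES27-4). Col1a1 was at 5.01, 7.18 and 10.5 FPKM in PAE and 5.35, 8.28 and 10.9 FPKM in SAC brains (-0.10, adjusted p = 0.729). Col1a2 was at 3.71, 5.29 and 6.60 FPKM in PAE and 4.26, 5.66 and 7.83 FPKM in SAC brains (-0.16, adjusted p = 0.490, and -0.08 without ES27-4). The groups overlapped for both chains of type I collagen, and for Col1a2 the lowest PAE brain, ES27-4, lay below every SAC brain.

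Dcn was at 1.84, 7.07 and 9.30 FPKM in PAE and 5.78, 6.98 and 7.78 FPKM in SAC brains, a log2 difference of -0.17 that was 0.09 without ES27-4 (adjusted p = 0.672 with it). Ogn was at 3.44, 7.17 and 8.58 FPKM in PAE and 4.86, 6.77 and 8.0 FPKM in SAC brains (-0.06, and 0.08 without ES27-4). Islr was at 2.56, 10.3 and 12.01 FPKM in PAE and 7.40, 10.4 and 11.6 FPKM in SAC brains (-0.16, and 0.12 without ES27-4). For Dcn, Ogn, Islr, Lum, Foxc1, Col18a1 and Col5a2 the difference was below 0 with ES27-4 and above 0 without it, for Col2a1 the reverse, and none of the 8 passed either way.

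Fn1 was at 5.00, 9.15 and 10.9 FPKM in PAE and 8.20, 10.1 and 11.1 FPKM in SAC brains (-0.17, adjusted p = 0.461 by limma, and -0.03 without ES27-4). On sums over the transcript table Fn1 was at 6.74, 8.80 and 11.3 FPKM in PAE and 9.64, 12.8 and 15.4 FPKM in SAC brains, and there it passed (-0.48, adjusted p = 0.0429 by limma), but not without ES27-4 (-0.41, adjusted p = 0.0762 by limma), a fit added after seeing the data. Its transcript of highest level was at 1.31, 2.79 and 3.25 FPKM in PAE and 3.16, 3.88 and 6.62 FPKM in SAC brains. Fbln1 was at 5.31, 6.25 and 7.0 FPKM in PAE and 5.58, 5.67 and 7.33 FPKM in SAC brains (0.07, adjusted p = 0.568).

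**Figure D5:**
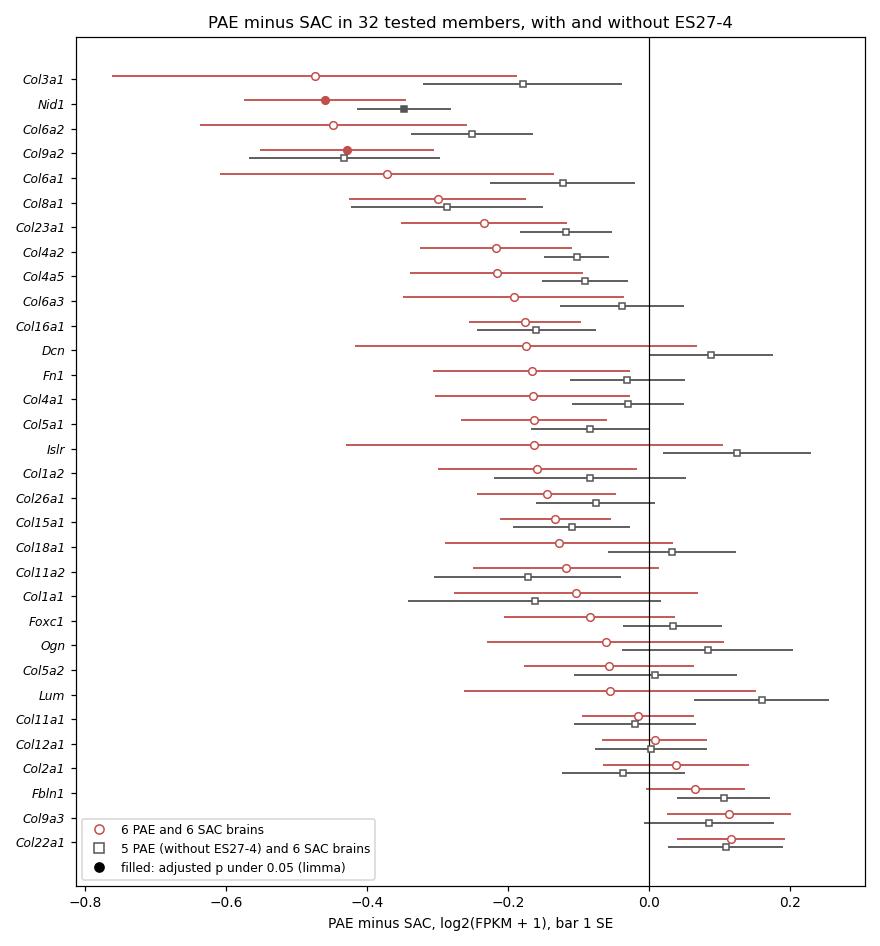
PAE minus SAC difference on the log2(FPKM + 1) scale (x axis, bar 1 standard error) for the 32 tested members, with all 12 brains (circles) and without ES27-4 (squares); filled symbols have an adjusted p under 0.05 by limma. With all brains 27 of 32 points lie left of 0 and 2 are filled, and without ES27-4 21 lie left of 0 and only Nid1 is filled.

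By family, the remaining tested collagens gave no call. Col6a2 was at 1.08, 3.48 and 4.32 FPKM in PAE and 3.79, 4.67 and 5.55 FPKM in SAC brains, a log2 difference of -0.45 (adjusted p = 0.140) that was -0.25 without ES27-4 (adjusted p = 0.0967, limma). Col6a1 (-0.37) and Col6a3 (-0.19) did not pass either, and were at -0.12 and -0.04 without ES27-4. Col8a1, a short-chain collagen of vessel and corneal membranes, was at 0.88, 1.24 and 1.94 FPKM in PAE and 1.24, 1.83 and 2.45 FPKM in SAC brains (-0.30, adjusted p = 0.137). It passed without ES19-4 (-0.37, adjusted p = 0.0418 by limma). Over the whole table, 124 to 2385 genes passed when single brains were left out. The Col8a1 call was not set against the share of all genes that passed without ES19-4, so it does not single out Col8a1. Col2a1 (0.04), Col11a1 (-0.02), Col11a2 (-0.12), Col5a1 (-0.16) and Col5a2 (-0.06) of the fibrillar family had adjusted p-values from 0.320 to 0.918. Of the others, Col4a5 (-0.22), Col23a1 (-0.23), Col16a1 (-0.18), Col15a1 (-0.13), Col18a1 (-0.13) and Col26a1 (-0.15) lay below 0, Col22a1 (0.12) and Col12a1 (0.01) above it, with adjusted p-values from 0.164 to 0.955. Without ES27-4 the difference was -0.08 for Col5a1, -0.09 for Col4a5, -0.12 for Col23a1 and -0.08 for Col26a1.

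Among the 11 members under 1 FPKM, single-gene exact permutation tests over all splits of 6 of 12 brains were two-sided and are given unadjusted. Col25a1, a transmembrane collagen found in amyloid plaques, was at 0.47, 0.93 and 1.03 FPKM in PAE and 0.99, 1.07 and 1.22 FPKM in SAC brains (exact permutation p = 0.00866). Col5a3, the third chain of type V collagen, was at 0.18, 0.21 and 0.36 FPKM in PAE and 0.19, 0.46 and 0.60 FPKM in SAC brains (exact permutation p = 0.0260). Lama2 was at 0.33, 0.57 and 0.70 FPKM in PAE and 0.63, 0.67 and 0.76 FPKM in SAC brains (exact permutation p = 0.0325). PAE medians were lower in all 3, and the groups overlapped in each. The share of all genes under 1 FPKM with such a p was not computed, so these 3 of 11 cannot be set against it. Among the tested genes, by limma and not permutation, 13.7% were higher and 14.8% lower at an unadjusted p under 0.05. Without ES27-4 the exact permutation p was 0.0108 for Col25a1, 0.0260 for Col5a3 and 0.0606 for Lama2. The exact permutation p of the other 8 was between 0.154 and 0.840.

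Within each sex the same comparison had 3 brains a group. In males 0 members passed by limma (0.0324% of all genes were higher and 0% lower at an adjusted p under 0.05), the median of the members was 0.02 and 0 members had an unadjusted p under 0.05 (9.39% of all genes higher and 9.9% lower). In females 0 members passed by limma (0% of all genes higher and 0% lower). The female median was -0.32 (-0.003 over all genes), and 28 of 32 members were below 0. At an unadjusted p under 0.05 by limma, 1 member was higher and 5 were lower (6.69% and 7.59% of all genes). ES27-4 is 1 of the 3 PAE females. Without it the female median was -0.08 (0.001 over all genes), 26 of 32 members were below 0, and 0 members passed. There 4 members had an unadjusted p under 0.05 by limma, a count not set against the share of all genes. The interaction of sex and PAE gave 0 members by limma (0.0081% of all genes higher, 0% lower) and 0 at an unadjusted p under 0.05 (2.54% of all genes higher, 1.41% lower). Its median (male minus female effect) was 0.21 in the members and 0.006 over all genes, with 30 of 32 members above 0. Without ES27-4 these medians were 0.08 and 0.001, with 22 of 32 members above 0. Without ES19-4, 2 members passed in females by limma, Nid1 lower (-0.75, adjusted p = 0.0362, where 2.45% of all genes were lower) and Col9a3 higher (0.41, adjusted p = 0.0490, where 1.37% were higher).

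The members of smallest unadjusted p in females were Nid1, Col6a2 and Col3a1. Nid1 was at 5.55, 8.92 and 11.3 FPKM in PAE females and 12.2, 12.5 and 13.0 FPKM in SAC females (-0.55, adjusted p = 0.308 by limma, and -0.30 without ES27-4). Col6a2 was at 1.08, 3.57 and 4.32 FPKM in PAE females and 4.63, 5.17 and 5.55 FPKM in SAC females (-0.72, adjusted p = 0.312 by limma, and -0.31 without ES27-4). Col3a1 was at 1.65, 8.13 and 8.36 FPKM in PAE females and 9.05, 11.2 and 13.4 FPKM in SAC females (-0.99, adjusted p = 0.318 by limma, and -0.39 without ES27-4). In each of the 3 genes all PAE females lay below all SAC females. Over the 32 tested members 3 did so and 0 lay above, where 7.33% of all genes lay below and 7.41% above, and these 3 were chosen for their p.

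In males the smallest were Nid1, Col9a2 and Fbln1. Nid1 was at 8.43, 9.28 and 9.34 FPKM in PAE males and 11.4, 11.5 and 13.0 FPKM in SAC males (-0.37, adjusted p = 0.269 by limma), with no overlap. Col9a2 was at 5.54, 5.55 and 6.22 FPKM in PAE males and 6.48, 7.21 and 10.1 FPKM in SAC males (-0.38, adjusted p = 0.293 by limma). Fbln1 was at 6.16, 6.26 and 7.0 FPKM in PAE males and 5.58, 5.63 and 5.83 FPKM in SAC males (0.16, adjusted p = 0.400 by limma). Neither Col9a2 nor Fbln1 overlapped between PAE and SAC males. Over the 32 tested members 2 lay below SAC in all PAE males and 3 above, where 16.3% of all genes lay below and 16.6% above, so the members were not above the share over all genes.

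For the interaction they were Ogn, Islr and Foxc1, all at an adjusted p of 1.00 by limma. Ogn was at 6.79 to 7.85 FPKM in PAE males and 4.86 to 6.61 FPKM in SAC males, and at 3.44 to 8.58 FPKM in PAE females and 6.94 to 8.0 FPKM in SAC females. Islr was at 9.85 to 12.01 FPKM in PAE males and 7.40 to 10.8 FPKM in SAC males, and at 2.56 to 10.4 FPKM in PAE females and 9.96 to 11.6 FPKM in SAC females. Foxc1 was at 2.37 to 2.78 FPKM in PAE males and 2.10 to 2.42 FPKM in SAC males, and at 1.12 to 2.62 FPKM in PAE females and 2.24 to 2.78 FPKM in SAC females. The lowest PAE female was ES27-4 in all 3 genes.

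Pairs of members that build 1 protein or share a cell type were followed across the 12 brains. They were 12 pairs, with p-values from 100000 permutations adjusted over the pairs. Col6a1 and Col6a2 correlated at r = 0.95 (rho = 0.78, permutation adjusted p = 0.00248 and 0.0142), which was 0.59 without the 2 brains farthest from the median of Col6a1. Col4a1 and Col4a2 correlated at r = 0.93 (rho = 0.73, permutation adjusted p = 0.00279 and 0.0225) and at 0.79 without the 2 farthest, and Dcn and Lum at r = 0.95 (rho = 0.85, permutation adjusted p = 0.00198 and 0.00948) and 0.70. Col3a1 and Col4a1 had r = 0.94 (rho = 0.60) and 0.59 without the 2 farthest. In each of these 4 pairs 1 of the 2 farthest brains was ES27-4. Without ES27-4 alone r was 0.73 for Col6a1 and Col6a2, 0.65 for Col4a1 and Col4a2, 0.72 for Dcn and Lum and 0.71 for Col3a1 and Col4a1. The relation of Col4a1 and Col4a2 no longer passed there (permutation adjusted p = 0.0599 for r and 0.0625 for rho), and rho of Col3a1 and Col4a1 passed neither with ES27-4 (permutation adjusted p = 0.0543) nor without it (0.166). The other values of these 4 pairs still passed.

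Pairs with Col1a1 behaved the other way round. Col1a1 and Col3a1 had r = 0.13 (rho = 0.63, permutation adjusted p = 0.714 and 0.0543) over 12 brains and r = 0.82 without ES27-4. Col1a1 and Col1a2 had r = 0.64 (rho = 0.59) over 12 brains and 0.92 without ES27-4. In SAC brains alone, both pairs had r = 0.95 (exact permutation adjusted p = 0.0375 and 0.0333, n = 6). In PAE brains r was -0.29 and 0.33 (exact permutation adjusted p = 0.658 and 0.533, n = 6). Leaving out the 2 brains farthest from the median of Col1a1, ES27-1 and SAC26-5, gave -0.02 and 0.50.

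Of the rest, Col4a5 and Col4a6 (r = 0.89), Dcn and Ogn (r = 0.79) and Col4a1 and Nid1 (r = 0.73) were at 0.43, 0.37 and 0.16 without ES27-4, so these relations rest on that brain. Col5a1 and Col5a2, chains of type V collagen, were at r = 0.80 and 0.74 without it. Foxc1 and Foxd1 with Col1a2 were at 0.69 and 0.68, and at 0.58 and 0.58 without it. Neither r passed without ES27-4 (permutation adjusted p = 0.0877 and 0.0850). There rho passed for Foxd1 (permutation adjusted p = 0.0399) and not for Foxc1 (0.0702).

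Genes that act on the members were counted by list over the PAE and SAC comparison, with directions at an adjusted p under 0.05 by limma, where 4.34% of all genes were higher and 5.22% lower. Without ES27-4 these shares were 2.17% and 2.36%. Of 20 tested chaperones and modifying enzymes of collagen 0 passed, with Mia3, which exports procollagen, at a mean of 25.6 FPKM in PAE and 28.0 FPKM in SAC brains (adjusted p = 0.0582). Of 10 genes that process or crosslink collagen 1 rose, Loxl1, a lysyl oxidase (3.72 FPKM in PAE and 2.86 FPKM in SAC brains, log2 difference 0.29, adjusted p = 0.0255). Of 6 receptors 0 passed. Of 12 degrading enzymes and their inhibitors 2 fell, the metalloproteinase inhibitors Timp3 (7.29 FPKM in PAE and 9.93 FPKM in SAC brains, adjusted p = 0.0471) and Timp4 (0.93 and 1.70 FPKM, adjusted p = 0.0469). Of 12 basement membrane partners 1 fell, Smoc1 (8.04 FPKM in PAE and 11.2 FPKM in SAC brains, adjusted p = 0.0365), and Lamc1, the common laminin gamma chain, was at 6.39 and 8.10 FPKM (adjusted p = 0.0596). Without ES27-4, Loxl1 and Timp3 still passed, Timp4 and Smoc1 did not, and no other gene of these lists passed.

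Of 23 other meningeal fibroblast genes 3 fell, Alcam, Crabp2 and Ngfr (-0.27, -0.32 and -0.65, adjusted p = 0.0253, 0.0436 and 0.0436 by limma), and the median of the list was -0.17. Over all tested genes 4.34% were higher and 5.22% lower, and 2.17% and 2.36% without ES27-4. Without ES27-4 only Alcam passed and the median was -0.04. Alcam and Ngfr, an adhesion molecule and the low-affinity neurotrophin receptor, are made by neurons as well. Of 3 other small leucine-rich proteoglycans 0 passed, and of 17 elastic fibre and matricellular genes 1 fell, Sparcl1 (140 FPKM in PAE and 211 FPKM in SAC brains, adjusted p = 0.0255), which astrocytes make and which also passed without ES27-4.

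Markers of other cells moved between the groups as follows, and their part in the collagen values was not tested. The shares over all tested genes were 4.34% higher and 5.22% lower, and 2.17% and 2.36% without ES27-4. Of 14 endothelial markers 2 fell, Ly6c1 and Flt1 (-0.45 and -0.34, adjusted p = 0.0208 and 0.0353), and without ES27-4 Ly6c1 fell and Cldn5, a tight junction gene, rose while Flt1 did not pass. The summed list was 74.1 to 115 FPKM in PAE and 102 to 109 FPKM in SAC brains. No gene passed among 11 tested markers of pericytes and smooth muscle, 4 of bone and cartilage, 2 of skeletal muscle, 5 of skin and epithelium, 6 of choroid plexus, 6 of red blood cells, 9 of microglia and macrophages and 10 of hindbrain and spinal cord. Of 10 cortical neuron genes 8 rose and 0 fell, with a median of 0.50, and without ES27-4 6 rose and the median was 0.51. Other meningeal fibroblast genes summed to 156, 285 and 308 FPKM (lowest, median and highest) in PAE and 299, 326 and 358 FPKM in SAC brains, and the lowest PAE brain was ES27-4.

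Some members share exons with another gene model, and whether the counting used strand is not stated, so their levels are uncertain. Islr shares 181 bases on the same strand with Islr2, whose mean was 98.04 FPKM in PAE and 84.5 FPKM in SAC brains. The longest shared stretch was 631 bases, of Lama2 with the antisense gene Gm48084. Col9a3 shares 234 bases with Tcfl5, Fn1 292 bases with Apol7d and Col3a1 141 bases with a miRNA gene.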

How the data were processed

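Total RNA of 12 whole brains (6 PAE and 6 SAC) was made into stranded poly-A libraries. Read quality was measured with FastQC, adapters were removed with cutadapt, reads were mapped with HISAT2, and StringTie and Ballgown gave the expression values. Tool versions were not given in the sources used here. What the authors deposited were FPKM per gene and per transcript, scaled for transcript length and depth, so shifts in a few very abundant genes move all others, and counts could not be tested. Each of both tables had 1 line emptied for this work. The paper names the build GRCm28, and all 43 loci match GENCODE M21 of GRCm38. Whether the counting used strand is not stated.

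FPKM were transformed to log2(FPKM + 1). Genes whose mean reached 1 FPKM (12346) were tested with limma 3.58.1 in R 4.3.3 (trended variance, empirical Bayes, Benjamini-Hochberg adjustment, threshold 0.05), PAE with SAC over 12 brains without a covariate, and within each sex and for the interaction in 1 fit of 4 groups. The test was also run on simulated data, and the outcome is not given here, so nothing is drawn from it. Members under 1 FPKM were tested by exact permutation and pairs of members by permutation (numpy 2.4.6). Named with values by group were members that passed in PAE with SAC, the 12 of highest mean, and the 3 of smallest p in males, females and the interaction. Genes of the 12 pairs were named with their correlations, and only some of them with values by group. Every other member was named at least by range or count, and of each of 18 lists up to 3 genes of smallest p. No member of at least 1 FPKM varied 10-fold between brains. The members and lists were chosen with earlier results of these data known. Promoters are RefSeq's (GRCm38.p6). Alternatives were a pseudocount of 0.1 or of 0.01, no filter or one at 0.1 FPKM, quantile and median-of-ratios scaling, sex or Hox level as a covariate, only the 6 libraries compared within a sex, prefix means or a random block by prefix (statmod 1.5.0), exact permutation, robust empirical Bayes, transcript sums and leaving out each brain. Transcript sums without ES27-4 were added after seeing the data.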

Additional observations from a re-analysis of the deposited data

Results flagged for a closer look

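In each of the 43 members the lowest and the highest brain of PAE and of SAC were compared with the nearest other brain of the group. In 13 of 86 groups a brain stood further apart than a 95% limit for 6 values allows, which chance alone does in about 1 in 20 groups, and the members are not independent of each other. In 9 of the 13 the brain was ES27-4, as the lowest PAE brain. It was at 13.1 FPKM for Col4a1 (the next PAE brain at 23.2 FPKM), 13.1 FPKM for Col4a2 (20.4), 2.56 FPKM for Islr (9.85) and 1.65 FPKM for Col3a1 (6.74). It was at 1.12 FPKM for Col6a1 (4.36), 1.08 FPKM for Col6a2 (3.36), 0.368 FPKM for Col6a3 (1.34), 1.19 FPKM for Lum (3.65) and 0.265 FPKM for Col13a1 (0.837).

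ES27-4 was also the highest PAE brain for Col5a3, at 0.357 FPKM with the next at 0.234 FPKM. The other 3 were ES19-4 as the lowest PAE brain for Col11a1 (2.25 FPKM, the next at 3.05 FPKM), ES27-1 as the lowest PAE brain for Col28a1 (0.244 FPKM, the next at 0.426 FPKM), and SAC26-5 as the highest SAC brain for Fbln1 (7.33 FPKM, the next at 5.83 FPKM). Levels under 1 FPKM rest on an unknown number of reads.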

How the results depend on the processing

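The count of 2 members lower in PAE was 1 with quantile scaling, with sex as a covariate and with the prefix as a random block (correlation within a prefix 0.0464), and in each of these the call that was lost was Col9a2. On transcript sums it was 2, Nid1 and Fn1 in place of Nid1 and Col9a2. Without ES27-4, a fit added after seeing the data, transcript sums gave 0 members (adjusted p = 0.0616 for Nid1 by limma) and 2 genes over the whole table. It was 0 with the Hox level as a covariate, with means of each prefix (3 against 2) and with an exact permutation test per gene, where p cannot go below 0.00216 and the smallest adjusted p of a member was 0.0538 (Nid1). Leaving out 1 brain at a time gave 0 to 3, 3 only without ES19-4 (Nid1, Col9a2 and Col8a1). These counts were not set against the share of all genes that passed in the same fits. Members that passed in females were 0 to 2 when 1 brain was left out, 2 only without ES19-4. Members higher in PAE, in males and in the interaction stayed at 0 under every alternative run. The 1180 genes called over the whole table were 549 on transcript sums, 0 with the Hox covariate, prefix means or exact permutation, and 124 to 2385 without 1 brain. Of 803 values of single members under the alternatives, 774 kept their side of the threshold, and 17 changed sign, none of them in a value that passed. The causes were not tested. The correlation of Col1a1 and Col3a1 changed sign, to -0.024, without the 2 farthest brains. Prefixes hold 1 treatment each, so no comparison within a prefix exists. Means of each prefix were not run within a sex or for the interaction. No paired analysis was possible because the labels number no replicates across PAE and SAC. FPKM give no depth, so the precision of members near 1 FPKM is unknown.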

Other observations

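Single genes of the lists, chosen after their values were seen, are given for ES27-4 with no test. Among genes of collagen fibrils and their processing, Fmod, a proteoglycan of collagen fibrils, was at 1.16 FPKM in ES27-4 and 4.17 to 6.91 FPKM in the other 11 brains, Lox, a lysyl oxidase, at 0.89 and 2.33 to 3.79 FPKM, and Postn, periostin, at 1.11 and 3.20 to 5.06 FPKM. Nid2, the second nidogen, was at 2.89 FPKM in ES27-4 and 6.16 to 7.90 FPKM in the others. Some genes of collagen processing were within the range of the others, among them Loxl1 (3.81 FPKM in ES27-4 and 2.48 to 4.03 FPKM) and Adamts3 (5.62 and 3.24 to 7.32 FPKM).

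The following markers of macrophages at the borders of the brain were each lowest in ES27-4. Mrc1, the mannose receptor, was at 0.89 FPKM in ES27-4 and 3.86 to 6.20 FPKM in the others, Lyve1, a hyaluronan receptor, at 0.70 and 3.33 to 5.83 FPKM, and Pf4 at 1.61 and 6.43 to 11.6 FPKM. Smooth muscle genes were low as well, with Acta2 at 0.62 FPKM in ES27-4 and 2.25 to 5.92 FPKM in the others, and Myh11 at 0.11 and 0.53 to 1.02 FPKM. Emx1, a transcription factor of the cortex, was at 10.2 FPKM in ES27-4 and 3.63 to 9.96 FPKM in the others.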
